A study of Homo sapiens with 6 samples.

Results

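The response of THP-1, an established line grown from a human monocytic leukaemia, to 8 h of lipopolysaccharide (LPS), the bacterial outer membrane component, was compared with the resting state. The comparison used 4 of the 6 arrays of the study. In 2 arrays the cells had received 50 ng/ml LPS for 8 h, and in the other 2 they were 8 h controls that had received neither LPS nor the study's compound LC53. The remaining 2 arrays carried cells given 5 µM LC53 for 15 min and then the same LPS, and they entered the fit for its estimate of spread alone. The culture medium of all groups contained 0.5% serum. Whether both arrays in a group stem from different cultures is not recorded in the labels, so the p-values measure the spread between these arrays, which may be technical. RNA was labelled with Cy5 and read as 1 linear intensity per probe. For each of 18255 genes, 1 probe was kept, the brightest by its mean across all 6 arrays. Values under 1 were set to 1 before log2 was taken. A gene was called where the Benjamini-Hochberg adjusted p of a limma fit over all 31741 probes lay under 0.05, and "raised" and "lowered" are used of called genes. Log2 differences are LPS minus resting, ± SE, with n = 2 arrays per group throughout. For many named genes, though not all, both intensities of each group are printed. The gene lists described here were chosen with earlier results of these data known.

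LPS is bound by CD14 and MD-2 and sensed by TLR4. One arm of the receptor signals through MyD88 to NF-kB and MAP kinases, and another through TRIF to IRF3 and type I interferon. Cytokine, chemokine and interferon-stimulated genes are the classic readout of this response in monocytes. Those lists, with 269 measured genes, are set aside here, and the account turns to what else was raised and to what was lowered.

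Median intensities over all probes were 84.4 and 124.0 with LPS, against 99.2 and 110.9 at rest. Of all probes 96 were saturated on at least 1 array. The cells carried monocyte markers. The 15 measured markers of monocytes and THP-1 cells summed to 247098 and 260901 with LPS, against 223586 and 229016 at rest. Among them ELANE and AZU1 were saturated on all 4 arrays, and the other 13 summed to 110612 and 134909 with LPS, against 93657 and 96875 at rest. Much of these sums came from S100A8, at 31536 and 32960 with LPS and 17098 and 20118 at rest, and S100A9. S100A9 read 31016 and 40648 with LPS and 18198 and 20439 at rest, and neither gene was called. The higher sums with LPS thus do not show a general rise of monocyte markers. LYZ, the lysozyme gene, read 9594 and 14769 with LPS and 14248 and 12196 at rest, and CSF1R, the receptor for macrophage colony-stimulating factor, 2078 and 2651 with LPS and 1851 and 1944 at rest, and neither was called. Of the same list MPO was lowered and CTSG raised, and the rest were not called. Of 10 T and NK cell markers 6 averaged under 50, although NKG7 read between 3222 and 3566 on the 4 arrays. Of 6 B cell markers 4 averaged under 50, and of 4 erythroid markers 1. Of 13 epithelial, endothelial and fibroblast markers 7 averaged under 50. These 13 summed to 1097 and 1463 with LPS, against 779 and 871 at rest. DCN, LUM and PDGFRB among them were raised, and the part of such cells in the results was not tested.

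LPS raised 814 genes (4.46% of those measured) and lowered 566 (3.1%), so 7.56% were called. The classic lists held 119 of the raised genes, or 14.6%, and 4 of the lowered ones. Outside these lists 695 genes were raised (3.86% of 17986) and 562 were lowered (3.12%). On the probe level 2069 of 31741 were called (6.52%), 1276 higher (4.02%) and 793 lower (2.5%) with LPS. Of 7083 probes with no single gene symbol, 271 (3.83%) were called. Quantile normalization gave an even split, with 2553 higher and 2604 lower, so the share of higher calls was 49.5% in place of 61.7%. Without LPS replicate 2 the split was 981 higher and 1598 lower, and without LPS replicate 1 it was 1453 and 493. The number of lowered genes in particular depended on single arrays and was 58 without resting replicate 1 and 50 without resting replicate 2, while 271 and 318 genes were raised.

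**Figure D1:**
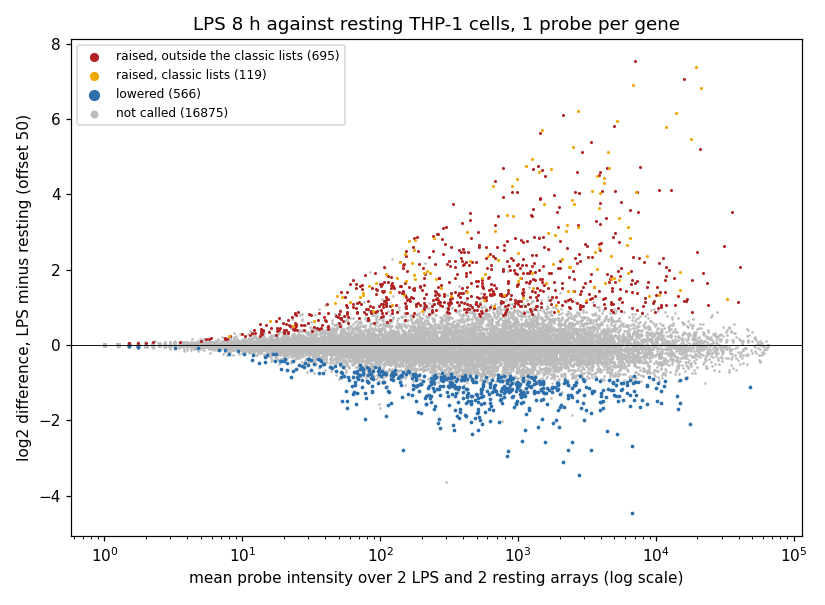
Log2 difference of LPS minus resting, with 50 added to each intensity, against the mean intensity over the 4 arrays (log scale), 1 point per gene. The 695 raised genes outside the classic lists and the 119 classic ones reach above 7, while only 1 of the 566 lowered genes lies below -4. With this offset, genes dim at rest cannot fall far.

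Large changes, on a scale with an offset, were mostly rises. To compare sizes without the weight of very dim probes, 50 was added to each intensity before log2. On that scale 229 raised genes had changed by more than 2 and 93 by more than 3, against 31 and 3 of the lowered genes. Outside the classic lists 167 raised genes lay past 2 and 55 past 3. The same asymmetry was seen over all genes, called or not, and under 2 other scalings. As deposited, 234 were more than 2 higher with LPS and 33 more than 2 lower. After median centring the counts were 234 and 33, and after quantile normalization 230 and 35. In the 4 pairs of 1 LPS and 1 resting array, as deposited, between 201 and 268 genes were more than 2 higher and between 26 and 43 more than 2 lower. The offset bounds falls more tightly than rises. A gene dim at rest cannot fall far on this scale, while its rise is bounded only by saturation. The other scalings did not remove this bound, and its part in the asymmetry was not tested. The starting levels differed too. Raised genes had a median intensity of 854 in LPS cells and 184 in resting cells. Lowered genes had medians of 248 in LPS cells and 749.8 in resting cells, and all genes 189.6 and 187. Where a called gene had other probes, these had the same sign in 316 of 344 cases for raised genes (91.9%) and in 160 of 176 for lowered genes (90.9%).

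**Figure D2:**
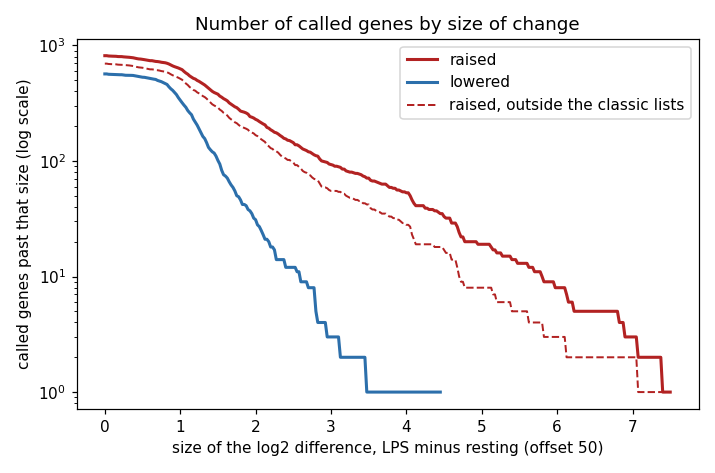
Number of called genes (log scale) whose log2 difference, with an offset of 50, exceeds the size on the horizontal axis. The raised curve counts 93 genes past 3, the raised curve outside the classic lists 55 and the lowered curve 3. Genes dim at rest cannot fall far on this scale.

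The 15 largest rises outside the classic lists spanned a secreted matrix protein, adhesion molecules, receptors, an amino acid oxidase and feedback regulators. They were TNFAIP6, IGFBP3, VCAM1, EPB41L5, STEAP4, ICAM1, IL4I1, TNFRSF9, SOCS3, FEZ1, BCL2A1, IL7R, PLA2G7, IER3 and RGL1, ranked with the offset of 50. IL4I1, a secreted L-amino acid oxidase, read 39483 and 41873 in LPS cells, against 1057 and 1076 in resting cells, a log2 difference of 5.25 ± 0.17 (adjusted p = 0.000195). TNFRSF9, the co-stimulatory receptor 4-1BB, had intensities of 6064 and 5377 in LPS cells, against 103 and 126 in resting cells, a difference of 5.65 ± 0.21. In both genes the LPS arrays lay far above the resting ones, and the spread within a group was small beside that gap. The 15 genes were selected as called, without overlap and largest, so such a gap follows from that choice. IL7R, the interleukin-7 receptor chain, read 8033 and 9151 in LPS cells, against 296 and 272 in resting cells (difference 4.92 ± 0.19). PLA2G7, the secreted phospholipase that degrades platelet-activating factor, read 1989 and 3045 in LPS cells, against 38.7 and 59.5 in resting cells. FEZ1, an adaptor of kinesin transport, measured 13842 and 15675 in LPS cells, against 465 and 564 in resting cells. The other FEZ1 probe was higher with LPS as well, by 3.56. SOCS3, the inhibitor of cytokine receptor signalling, read 2541 and 2935 in LPS cells, against 50.6 and 55.5 in resting cells, and RGL1, an exchange factor for Ral GTPases, 7274 and 7907 in LPS cells, against 262 and 275 in resting cells (difference 4.82 ± 0.18). The second SOCS3 probe differed by 0.91. EPB41L5, a FERM domain protein of cell junctions, read 9803 and 9915 in LPS cells, against 114 and 140.2 in resting cells, but its next brightest probe differed by -0.20. Of its 3 probes, 1 besides the brightest was also higher with LPS, and the size given is that of the brightest probe alone. All 15 calls held without each of the 6 arrays in turn (largest adjusted p 0.0112) and under the other settings tried.

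VCAM1, the adhesion receptor for VLA-4 integrin, read 3980.2 and 4461 in LPS cells, against 11.9 and 12.1 in resting cells, and its promoter is printed with those of TNFRSF9 and RGL1 because these are the raised genes of the 15 whose promoter window matched the NF-kB consensus. Windows of 300 bases, 250 before and 50 after the RefSeq start (GRCh38.p14), were found for 14 of the 15, and 3 of them matched. Capitals mark the match, which in TNFRSF9 is a pair of overlapping matches, and each sequence runs 5′ to 3′ on the gene's strand. The VCAM1 window lies at chr1:100719492-100719791 on the plus strand, that of TNFRSF9 at chr1:7940790-7941089 on the minus strand and that of RGL1 at chr1:183635859-183636158 on the plus strand.
VCAM1: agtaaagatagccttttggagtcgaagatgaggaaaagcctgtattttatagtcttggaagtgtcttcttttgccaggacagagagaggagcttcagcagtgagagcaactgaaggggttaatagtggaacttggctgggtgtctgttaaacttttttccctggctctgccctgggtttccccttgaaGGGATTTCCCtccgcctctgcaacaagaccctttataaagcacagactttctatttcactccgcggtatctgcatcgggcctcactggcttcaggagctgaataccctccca
TNFRSF9: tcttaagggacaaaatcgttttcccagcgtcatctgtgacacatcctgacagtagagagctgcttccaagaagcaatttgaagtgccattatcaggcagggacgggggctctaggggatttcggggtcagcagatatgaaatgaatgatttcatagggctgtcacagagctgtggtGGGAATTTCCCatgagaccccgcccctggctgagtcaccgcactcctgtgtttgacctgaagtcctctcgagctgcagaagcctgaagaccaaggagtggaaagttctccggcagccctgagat
RGL1: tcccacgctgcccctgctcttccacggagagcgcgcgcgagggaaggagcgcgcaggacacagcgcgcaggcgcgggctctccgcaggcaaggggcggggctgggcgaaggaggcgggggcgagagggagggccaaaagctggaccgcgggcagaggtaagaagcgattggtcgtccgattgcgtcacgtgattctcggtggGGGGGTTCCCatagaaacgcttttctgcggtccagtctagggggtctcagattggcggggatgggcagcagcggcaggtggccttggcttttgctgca

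Across all genes the same window was searched for 11 motifs on both strands, among them the NF-kB consensus of 10 bases, the interferon-stimulated response element ISRE and the AP-1 site (TGANTCA). The NF-kB consensus was found in 23.9% of 92 promoters of raised classic genes, 10.8% of 535 of other raised genes, 7.73% of 440 of lowered genes, 6.11% of 13512 of measured genes that were not called and 5.72% of all 27305 promoters in the table. ISRE was found in 44.6% of raised classic, 3.74% of other raised and 1.14% of lowered genes, against 2.78% of genes not called and 3.65% of all promoters. AP-1 sites were present in 16.3% of raised classic, 6.92% of other raised and 4.32% of lowered genes, against 5.65% of those not called and 7.76% of all. The site of PU.1 (GAGGAAGT), a transcription factor of myeloid cells, was found in 3.26%, 5.42% and 2.73% in the same order, against 2.43% and 2.54%. The cyclic AMP response element (TGACGTCA) was found in 3.26% of raised classic, 1.68% of other raised and 1.36% of lowered genes, against 2.69% and 1.98%. For the E-box (CACGTG) the shares were 4.35%, 7.1% and 7.5%, against 9.01% and 7.43%, and for the C/EBP motif (TTGCNNAA) 9.78%, 8.22% and 7.27%, against 8.4% and 10.6%. The MYB motif (AACNGTT) was found in 7.61%, 1.5% and 3.86%, against 2.9% and 3.52%, and the sterol element (TCACNCCAC) in 1.09%, 1.31% and 0.909%, against 1.17% and 1.15%. TATAAA was present in 18.5%, 10.5% and 7.05%, against 8.9% and 12%, and CCAAT in 37.0%, 29.9% and 33.2%, against 36.6% and 35.7%. The sets also differed in base composition, with a median GC content of 54.7% in raised classic, 64.7% in other raised and 66.2% in lowered genes, against 63% in genes not called and 58.3% in all promoters. These shares describe letters in a window and were not tested.

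The 15 largest falls were taken among called genes without overlap, ranked with the offset of 50. They were SERPINB2, BMP8B, NFE2, SERPINB10, COL9A3, IRX3, DHRS9, PADI1, NREP, NUDT7, MTARC1, TMT1A, IRAG2, ANKRD55 and CACNA2D3. They joined haematopoietic genes with genes of development and of peroxisomal or mitochondrial enzymes. AIFM3 was not called and so was left out, with an offset difference of -3.63. SERPINB2, encoding plasminogen activator inhibitor 2, read 554 and 519 in LPS cells, against 12076 and 13804 in resting cells, a log2 difference of -4.59 ± 0.19 (adjusted p = 0.00037). BMP8B, a bone morphogenetic protein, read 392 and 447 in LPS cells, against 5014 and 5135 in resting cells, a difference of -3.60 ± 0.18 (adjusted p = 0.000562). The near-identical paralog BMP8A may share this probe's signal. NFE2, a transcription factor of the erythroid and megakaryocytic lineages, read 349 and 450.0 in LPS cells, against 3962 and 3659 in resting cells (difference -3.26 ± 0.22). In each of these the gap between the groups was far wider than the spread within them, which the selection of called genes without overlap favours. IRX3, an Iroquois homeobox factor, read 519.8 and 577 in LPS cells, against 4246 and 3922 in resting cells, and COL9A3, a chain of collagen IX, 169.8 and 179.8 in LPS cells, against 1514 and 1519.8 in resting cells. DHRS9, a dehydrogenase of retinol and steroids, read 780.2 and 861 in LPS cells, against 5145 and 6822 in resting cells. NREP, first described in regenerating neurons, read 1550.0 and 1954 in LPS cells, against 12612 and 10508 in resting cells. Its second probe, dim at means of 13.3 with LPS and 23.5 at rest, differed by -0.93. NUDT7, a peroxisomal hydrolase of coenzyme A, read 623 and 703 in LPS cells, against 3990.3 and 4476 in resting cells, and MTARC1, a molybdenum enzyme of the mitochondrial outer membrane, 431 and 388 in LPS cells, against 2522 and 2894 in resting cells. TMT1A, a thiol methyltransferase, read 242 and 314 in LPS cells, against 1878 and 1814 in resting cells, and CACNA2D3, an auxiliary subunit of calcium channels, 1369 and 1629.8 in LPS cells, against 7186 and 7615 in resting cells. IRAG2, an endoplasmic reticulum protein of blood cells, read 1566 and 1758 in LPS cells, against 8426 and 9224 in resting cells. These falls were smaller than the rises at the top of the raised genes. PADI1, a peptidylarginine deiminase, had 0 as its listed intensity with LPS on each array and 283 and 304 at rest, so no fold is given. Its other probe, very dim at means of 6.45 with LPS and 3.99 at rest, differed by 0.71. All 15 calls held without each array in turn (largest adjusted p 0.0397).

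**Figure D3:**
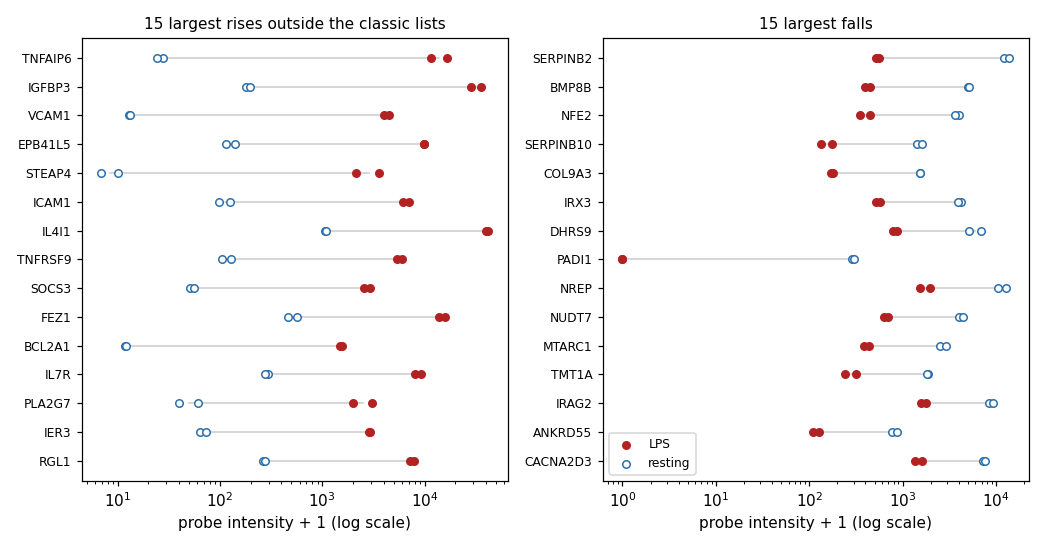
Intensity plus 1 (log scale) on each of the 2 LPS arrays (filled) and 2 resting arrays (open) for the 15 largest rises outside the classic lists and the 15 largest falls. The genes were chosen among called genes for their size of change and for groups that do not overlap. PADI1 sits at the left edge because both LPS arrays listed it at 0.

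SERPINB2 and SERPINB10 are neighbours in the clade B serpin cluster of chromosome 18, which holds 10 such genes in RefSeq, 8 of them measured. The neighbours did not move alike. SERPINB10, a serpin of myeloid cells also called bomapin, read 133 and 174 in LPS cells, against 1425 and 1608 in resting cells (difference -3.31 ± 0.22). SERPINB7, next to SERPINB2 on the other side and chosen after its values were seen, was raised but dim. It read 19.8 and 22.1 in LPS cells, against 3.97 and 3.03 in resting cells (adjusted p = 0.00255, offset difference 0.41). SERPINB8, next beyond SERPINB10 among the serpin genes, read 3509 and 3655 in LPS cells, against 3511 and 3699 in resting cells and was not called, nor were SERPINB5, SERPINB11, SERPINB12 and SERPINB13. Among 31 serpin genes in all, 5 were raised (16.1%) and 2 lowered (6.5%), against 4.46% and 3.1% of all genes. SERPINE2, an inhibitor of thrombin and urokinase, read 6999.9 and 7684 in LPS cells, against 474 and 518 in resting cells (difference 3.89 ± 0.20), although its other probe differed by 0.29. SERPINB9, the inhibitor of granzyme B, read 147 and 179 in LPS cells, against 24.8 and 28.2 in resting cells.

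The promoters of the lowered SERPINB2 and BMP8B are printed to set beside those of the raised genes. Windows were found for 11 of the 15 most lowered genes. A single one, that of BMP8B, matched the NF-kB consensus (in capitals), so the match was present in a lowered gene as well. SERPINB2 held an AP-1 site and a TATAAA box and no NF-kB match in this window. The SERPINB2 window lies at chr18:63887455-63887754 on the plus strand and the BMP8B window at chr1:39788816-39789115 on the minus strand.
SERPINB2: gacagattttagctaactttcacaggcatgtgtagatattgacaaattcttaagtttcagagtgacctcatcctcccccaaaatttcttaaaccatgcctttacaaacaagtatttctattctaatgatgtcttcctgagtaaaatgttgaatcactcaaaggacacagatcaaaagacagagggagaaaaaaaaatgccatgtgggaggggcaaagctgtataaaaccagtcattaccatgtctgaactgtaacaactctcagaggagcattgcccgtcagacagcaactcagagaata
BMP8B: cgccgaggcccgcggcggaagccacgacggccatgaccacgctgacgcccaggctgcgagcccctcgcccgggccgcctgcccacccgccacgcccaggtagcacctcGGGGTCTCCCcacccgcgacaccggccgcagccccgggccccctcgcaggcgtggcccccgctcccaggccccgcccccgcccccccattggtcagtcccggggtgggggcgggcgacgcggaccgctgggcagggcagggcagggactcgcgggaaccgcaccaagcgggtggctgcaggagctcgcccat

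Of 32 measured genes in a list of haematopoietic progenitor factors, receptors and granule proteins, 13 were lowered (40.6%), 1 was raised and 18 were not called, with a median log2 difference of -0.74, against 3.1% lowered and a median of -0.07 over all genes. The list was written after the values were seen, so its count is a description. MYB, the factor that keeps progenitors dividing, read 7177 and 8090.5 in LPS cells, against 22317 and 22186 in resting cells, a difference of -1.55 ± 0.18. GFI1, a repressor of monocytic genes in granulocyte precursors, read 111 and 185 in LPS cells, against 621 and 606 in resting cells, and LYL1, a basic helix-loop-helix factor of stem cells, 63.5 and 56.7 in LPS cells, against 309 and 368 in resting cells. LMO2, a LIM adaptor of blood stem cells, was lowered as well, with 2019 and 2809.7 in LPS cells, against 5755 and 6921 in resting cells. MS4A3, a surface protein of granulocyte and monocyte progenitors, read 6127 and 7078 in LPS cells, against 29825 and 27418 in resting cells (difference -2.12 ± 0.19). The receptor tyrosine kinase FLT3 read 2983 and 3042 in LPS cells, against 7643 and 8064 in resting cells, and the lectin receptor CLEC12A, a marker of myeloid leukaemia cells, 168 and 216 in LPS cells, against 790.3 and 919 in resting cells. MPO, the granule enzyme myeloperoxidase, read 115 and 113 in LPS cells, against 272 and 297 in resting cells, whereas CTSG, the granule protease cathepsin G, was raised at a dim 25 and 28.8 in LPS cells, against 2.97 and 3.03 in resting cells. For the saturated granule genes ELANE and AZU1 no change could be seen. The calls of MYB, GFI1, LMO2, FLT3, CLEC12A and MPO ended when 1 array was left out, at an adjusted p up to 0.169 without resting replicate 1, 0.233 without resting replicate 2, 0.0663 without LPS replicate 1, 0.051 without LPS replicate 2 and 0.068 without either LC53 plus LPS array, and those of LYL1, MS4A3 and CTSG did not.

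Among 87 myeloid transcription factors 16 were raised (18.4%) and 6 lowered (6.9%), with a median of 0.15. The lowered ones were MYB, GFI1, HOXA5, GATA2, LMO2 and NFE2. NR4A3, an orphan nuclear receptor of the immediate early class, read 1401 and 1567 in LPS cells, against 169.6 and 187 in resting cells, a difference of 3.06 ± 0.19. BCL6, a transcriptional repressor, read 1805 and 2047 in LPS cells, against 234 and 263 in resting cells (difference 2.95 ± 0.19), and PRDM1, the repressor Blimp-1, 615 and 767 in LPS cells, against 80.3 and 87.7 in resting cells. All 3 calls held without each array in turn. SPI1, encoding PU.1 and named after its values were seen, was raised as well, with 780.2 and 1057 in LPS cells, against 308 and 352 in resting cells, a call that ended at 0.183 without resting replicate 1, 0.126 without resting replicate 2 and 0.0545 without either LC53 plus LPS array. A separate list of 38 nuclear receptors did not hold the raised NR4A3. Of its members 0 were raised and 3 lowered by limma, PPARG, HNF4G and THRA. At an unadjusted p under 0.05, 4 members were higher and 7 lower. PPARG, the lipid-sensing receptor of macrophages, read 116 and 139 in LPS cells, against 306 and 350.0 in resting cells. The calls of PPARG, HNF4G, THRA, HOXA5 and GATA2 ended too (adjusted p up to 0.321 without resting replicate 1, 0.331 without resting replicate 2, 0.0692 without LPS replicate 1 and 0.111 without either LC53 plus LPS array).

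**Figure D4:**
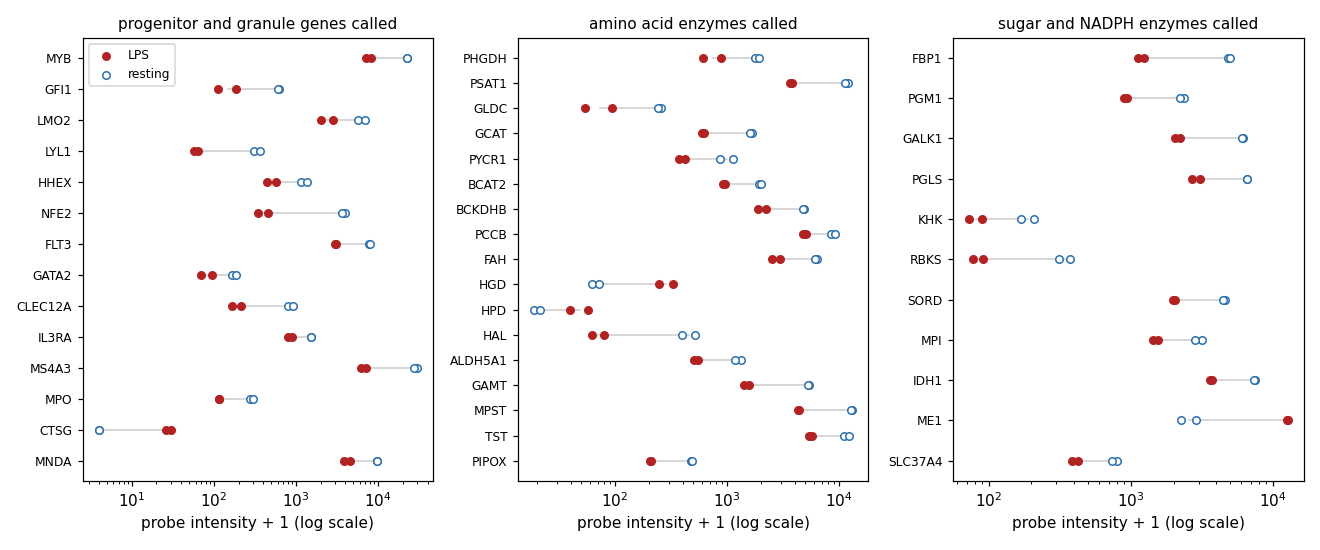
Intensity plus 1 (log scale) on each LPS array (filled) and resting array (open) for the called members of 3 lists written after values were seen. All but CTSG, HGD, HPD and ME1 lie lower on the LPS arrays, such as MYB at 7177 and 8090.5 with LPS and 22317 and 22186 at rest.

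Of 47 amino acid enzymes 15 were lowered (31.9%), 2 raised and 30 not called, with a median of -0.57. Of 29 enzymes of gluconeogenesis, sugar entry and NADPH supply 10 were lowered (34.5%), 1 raised and 18 not called, with a median of -0.54. Both lists were written after values were seen. PSAT1, an aminotransferase of serine synthesis, read 3604 and 3764 in LPS cells, against 11979.9 and 11288 in resting cells, a difference of -1.66 ± 0.17. PHGDH, the first enzyme of that route, was lowered by less, with 605 and 884 in LPS cells, against 1770.1 and 1924 in resting cells. MPST, a sulfurtransferase of cysteine breakdown, read 4358 and 4295 in LPS cells, against 13114 and 12883 in resting cells, and GAMT, the methyltransferase that makes creatine, 1411 and 1559.6 in LPS cells, against 5358 and 5269 in resting cells. HAL, histidine ammonia-lyase, showed the largest fall of the list, with 61.5 and 77.9 in LPS cells, against 399 and 515 in resting cells (difference -2.71 ± 0.23). HGD and HPD, a neighbouring pair in tyrosine breakdown, were the raised members. HGD read 244 and 329 in LPS cells, against 61.5 and 70.6 in resting cells, while FAH, the last enzyme of the same route, was lowered at 2498 and 2938 in LPS cells, against 6319 and 6079 in resting cells. FBP1, fructose bisphosphatase, read 1131 and 1236 in LPS cells, against 4811 and 4964 in resting cells (difference -2.05 ± 0.18), and GALK1, galactokinase, 2050.0 and 2229 in LPS cells, against 6108 and 6086 in resting cells. IDH1, the cytosolic NADPH-producing isocitrate dehydrogenase, was lowered at 3616 and 3750.1 in LPS cells, against 7445 and 7355 in resting cells, whereas ME1, malic enzyme and another NADPH source, was raised at 12613 and 12680.0 in LPS cells, against 2252 and 2853 in resting cells (difference 2.32 ± 0.20). The calls of PSAT1, PHGDH, MPST, GAMT, HGD, FAH, GALK1, IDH1 and HPD ended when 1 array was left out (adjusted p up to 0.294 without resting replicate 1, 0.256 without resting replicate 2, 0.0643 without LPS replicate 1, 0.0612 without LPS replicate 2 and 0.0875 without either LC53 plus LPS array), and also that of HPD with an offset of 50 (0.0826).

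Enzymes of kynurenine and NAD synthesis went both ways, 3 raised and 3 lowered of 20 (15% each) in a list written after values were seen. IDO1, which opens the tryptophan ring and is also in the interferon list, was raised with a difference of 7.81 ± 0.24. KYNU, kynureninase, was raised with 17968 and 20026 in LPS cells, against 4093 and 4911 in resting cells. QPRT, which turns quinolinate into the NAD precursor, was lowered at 5146 and 5517 in LPS cells, against 14202 and 15756 in resting cells. NAPRT, which uses nicotinic acid, was lowered at 9627 and 10863 in LPS cells, against 18544 and 20754 in resting cells, and NMNAT3, a late step, at 149 and 196 in LPS cells, against 759.6 and 837 in resting cells. NAMPT, which salvages nicotinamide, was raised at 518 and 588 in LPS cells, against 85.3 and 98.8 in resting cells (difference 2.59 ± 0.21). The calls of KYNU, QPRT, NAPRT and NMNAT3 ended when 1 array was left out, at up to 0.28 without resting replicate 1, 0.361 without resting replicate 2, 0.0694 without LPS replicate 1 and 0.114 without either LC53 plus LPS array.

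Among 57 nucleotide and polyamine enzymes 5 were lowered (8.77%) and 2 raised, with a median of -0.20. MTHFD2, the mitochondrial folate enzyme, and SAT1, the spermidine acetyltransferase, were the raised pair, MTHFD2 with 18758 and 22324 in LPS cells, against 7969.7 and 8589 in resting cells and SAT1 with 5254 and 5570.3 in LPS cells, against 1003 and 1068 in resting cells. CDA, cytidine deaminase, was lowered at 91.7 and 99 in LPS cells, against 334 and 404 in resting cells, and CTPS2, a CTP synthase, at 432 and 435 in LPS cells, against 1079 and 1076 in resting cells. Of 29 genes of cholesterol synthesis and uptake 0 were raised and 3 lowered by limma (10.3%), with a median of -0.40, and at an unadjusted p under 0.05, 2 were higher and 12 lower. TM7SF2, a sterol reductase, read 424 and 518 in LPS cells, against 1484 and 1470.4 in resting cells, and DHCR7, the last enzyme of the pathway, 1811 and 2103 in LPS cells, against 4408 and 4196 in resting cells. SREBF1, the sterol-responsive transcription factor, was lowered at 1956 and 2088 in LPS cells, against 3618 and 3623 in resting cells, just inside the threshold (adjusted p = 0.0495). The calls of MTHFD2, SAT1, CDA, CTPS2, TM7SF2, DHCR7 and SREBF1 all ended when 1 array was left out (up to 0.387 without resting replicate 1, 0.365 without resting replicate 2, 0.0672 without LPS replicate 1 and 0.132 without either LC53 plus LPS array), and that of SREBF1 after median centring (0.051).

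Lipid enzymes were called in both directions. Of 87 fatty acid, phospholipid and sphingolipid enzymes 9 were raised (10.3%) and 6 lowered (6.9%). MGLL, monoacylglycerol lipase, read 1218 and 1337 in LPS cells, against 87.3 and 104 in resting cells, a difference of 3.74 ± 0.20. ACSL1, which activates long-chain fatty acids, read 18786 and 18845 in LPS cells, against 3827 and 3708 in resting cells (difference 2.32 ± 0.18). In sphingolipid metabolism UGCG and SGMS2, which use ceramide, were among the raised genes. SPTLC2, of the enzyme that starts ceramide synthesis, was lowered at 451 and 471 in LPS cells, against 1074 and 1083 in resting cells, and ASAH1, acid ceramidase, at 2748 and 3137 in LPS cells, against 6979 and 6658 in resting cells. The calls of MGLL and ACSL1 held without each array in turn, and those of SPTLC2 and ASAH1 ended at up to 0.22 without resting replicate 1, 0.182 without resting replicate 2 and 0.0598 without either LC53 plus LPS array. UGCG read 4146 and 4747 in LPS cells, against 901 and 996 in resting cells, and SGMS2 327 and 387 in LPS cells, against 129 and 126 in resting cells, both named after their values were seen. The UGCG call held, and that of SGMS2 ended at up to 0.131 without resting replicate 1 and 0.131 without resting replicate 2.

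**Figure D5:**
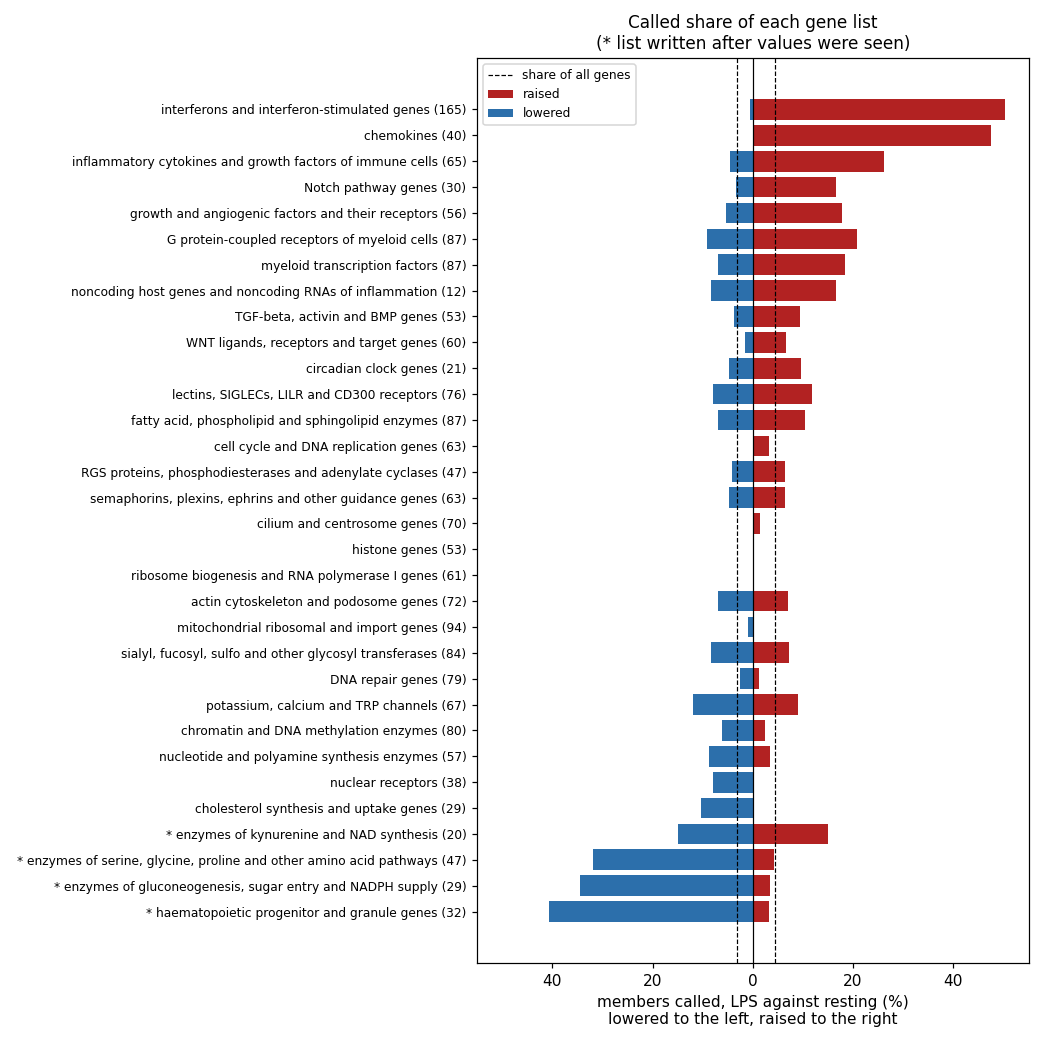
Share of the measured members of each gene list that were raised (right, red) or lowered (left, blue), with the list's number of measured genes. Dashed lines mark 4.46% raised and 3.1% lowered over all genes, and the lists marked with a star were written after values were seen.

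Of 87 listed G protein-coupled receptors of myeloid cells 18 were raised (20.7%) and 8 lowered (9.2%), against 4.46% and 3.1% of all genes. PTAFR, the receptor for platelet-activating factor, read 8057 and 7515 in LPS cells, against 398 and 428 in resting cells, a difference of 4.24 ± 0.18. ADORA2A, an adenosine receptor that raises cyclic AMP, read 1432 and 1598 in LPS cells, against 44.6 and 59.5 in resting cells (difference 4.88 ± 0.21). C3AR1, the receptor for complement C3a, read 2210.4 and 2404 in LPS cells, against 153 and 177 in resting cells. P2RY2, a receptor for extracellular ATP and UTP, was lowered at 569 and 593 in LPS cells, against 2191 and 2661 in resting cells, while the ATP-gated channels P2RX4 and P2RX7 were raised, P2RX7 with 937 and 1007 in LPS cells, against 227 and 266 in resting cells. CXCR2, the receptor of neutrophil-attracting chemokines, was lowered at 212 and 199 in LPS cells, against 718 and 688 in resting cells, and GPR18, a lipid receptor of leukocytes, at 1519 and 1473 in LPS cells, against 4413 and 4398 in resting cells. Raised receptors thus included PTAFR, ADORA2A and C3AR1, and lowered ones P2RY2, CXCR2 and GPR18. They were picked as the largest changes in each direction and do not stand for classes of ligand. Nucleotide receptors went both ways, with P2RY2 lowered and the channels P2RX4 and P2RX7 raised. PDE4B, which breaks down cyclic AMP, read 1781 and 1995 in LPS cells, against 61.5 and 68.6 in resting cells (difference 4.86 ± 0.18), and RGS16, which shortens G protein signals, 526 and 638 in LPS cells, against 23.8 and 19.2 in resting cells. In the list of 47 RGS proteins, phosphodiesterases and adenylate cyclases 3 were raised (6.4%) and 2 lowered (4.3%), PDE7B and ADCY9. ADCY9, an adenylate cyclase, read 617 and 609 in LPS cells, against 1372 and 1811 in resting cells. The calls of P2RY2, P2RX7, P2RX4, CXCR2, GPR18, PDE7B and ADCY9 ended when 1 array was left out (adjusted p up to 0.139 without resting replicate 1, 0.193 without resting replicate 2, 0.0537 without LPS replicate 1 and 0.0578 without either LC53 plus LPS array).

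Of 67 ion channels 8 were lowered and 6 raised (11.9% and 9.0%, against 3.1% and 4.46% of all genes). KCNJ2, an inward rectifier potassium channel, was raised at 348 and 372 in LPS cells, against 49.6 and 49.4 in resting cells. ORAI1 was raised and ORAI3 lowered, both pore subunits of store-operated calcium entry. ORAI3 read 844 and 929 in LPS cells, against 2029 and 2284 in resting cells, and ORAI1, named for this contrast after its values were seen, 3367 and 4240.4 in LPS cells, against 1702 and 2032 in resting cells (difference 1.02 ± 0.21). KCNMB1, a subunit of calcium-activated potassium channels, was lowered at 851 and 914 in LPS cells, against 1923 and 2194 in resting cells. Calls of ORAI3, ORAI1 and KCNMB1 ended when 1 array was left out, at up to 0.388 without resting replicate 1, 0.228 without resting replicate 2, 0.0662 without LPS replicate 2 and 0.118 without either LC53 plus LPS array, and that of KCNJ2 held.

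Among 76 lectins, SIGLECs, leukocyte immunoglobulin-like and CD300 receptors 9 were raised (11.8%) and 6 lowered (7.9%). CLEC4D, which binds mycobacterial and fungal glycolipids, read 577 and 617 in LPS cells, against 54.5 and 60.5 in resting cells, a difference of 3.38 ± 0.18. CLEC10A, a galactose lectin of dendritic cells, read 400.0 and 488 in LPS cells, against 99.2 and 89.8 in resting cells, and SIRPA, the receptor for the "don't eat me" signal CD47, 5788 and 5588 in LPS cells, against 2073 and 2101 in resting cells. CLEC4D, CLEC5A, CLEC6A and CLEC7A, receptors that signal through SYK, were all among the raised genes, the last 3 named after their values were seen. On the lowered side were LILRA2, an activating immunoglobulin-like receptor, with 360.4 and 496 in LPS cells, against 1417 and 1455 in resting cells, and CD300A, an inhibitory receptor, with 90.6 and 104 in LPS cells, against 359 and 448 in resting cells. When 1 array was left out the calls of CLEC5A, CLEC7A, SIRPA, LILRA2 and CD300A ended, at up to 0.188 without resting replicate 1, 0.169 without resting replicate 2, 0.0545 without LPS replicate 1 and 0.0567 without either LC53 plus LPS array.

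Of 56 growth factors and their receptors 10 were raised (17.9%) and 3 lowered. Raised ligands included VEGFA, the main angiogenic factor, with 548 and 879 in LPS cells, against 154 and 229 in resting cells. PDGFRB, the receptor for platelet-derived growth factor B, read 122 and 128 in LPS cells, against 1.98 and 4.03 in resting cells, so its resting level was near 0 and no fold is given (offset difference 1.72). PDGFD, a ligand of that receptor, was lowered at 121 and 147 in LPS cells, against 468 and 534 in resting cells, and INSR, the insulin receptor, at 304 and 431 in LPS cells, against 1101 and 1206 in resting cells. INSR's second probe, dim at means of 33.7 with LPS and 36.5 at rest, differed by -0.17. Of 53 TGF-beta, activin and BMP genes 5 were raised (9.4%) and 2 lowered (3.8%), against 4.46% and 3.1% of all genes. Those raised included the activin receptor ACVR2A, with 2210.4 and 2376 in LPS cells, against 401 and 392 in resting cells (difference 2.53 ± 0.17), and the inhibitors SKIL and SMAD7. SKIL, a repressor of SMAD targets, read 399 and 479.8 in LPS cells, against 55.5 and 66.6 in resting cells, and SMAD7, which blocks the receptor, 173 and 251 in LPS cells, against 41.6 and 33.3 in resting cells. BMP4, a ligand, was lowered at 85.4 and 91.3 in LPS cells, against 259 and 259 in resting cells. INHBB, an activin subunit, was the other lowered gene. Calls of VEGFA, PDGFD, INSR, SMAD7, BMP4 and INHBB ended when 1 array was left out (adjusted p up to 0.306 without resting replicate 1, 0.339 without resting replicate 2, 0.0709 without LPS replicate 1, 0.0564 without LPS replicate 2 and 0.104 without either LC53 plus LPS array), and so did that of INHBB with an intensity trend and robust shrinkage (0.0677) and that of INSR with the mean over all its probes (0.088).

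Of 30 Notch pathway genes 5 were raised (16.7%) and 1 lowered. DLL4, a Notch ligand, read 1446 and 1616 in LPS cells, against 334 and 358 in resting cells, a difference of 2.14 ± 0.18. LFNG, a glycosyltransferase that tunes Notch to its ligands, read 559 and 879 in LPS cells, against 66.4 and 90.8 in resting cells. Its other probe, dim at means of 13.7 with LPS and 17.5 at rest, differed by -0.61. MAML2, a co-activator, read 144 and 213 in LPS cells, against 31.7 and 36.3 in resting cells. Among the target genes HEY1, named after its values were seen, was raised and HEYL lowered, HEYL with 494 and 487 in LPS cells, against 1341 and 1586 in resting cells. Of 60 WNT genes 4 were raised (6.7%) and 1 lowered (1.7%), against 4.46% and 3.1% of all genes. WNT10A and WNT5B, both ligands, were raised, WNT5B with 132 and 118 in LPS cells, against 44.6 and 48.4 in resting cells, and FZD7, a receptor, with 545 and 716 in LPS cells, against 262 and 284 in resting cells. WNT11 fell to near 0, with 2.08 and 0 in LPS cells, against 114 and 113 in resting cells (offset difference -1.68). Of 63 semaphorins, plexins, ephrins and other guidance genes 4 were raised and 3 lowered, near the shares of all genes. SLIT2, a secreted guidance ligand, was raised at 94.8 and 109.6 in LPS cells, against 28.8 and 37.3 in resting cells, and EPHA1, an ephrin receptor, lowered at 37.5 and 39.4 in LPS cells, against 100.2 and 106 in resting cells. The calls of DLL4 and WNT11 held without each array in turn. The calls of LFNG, MAML2, HEY1, HEYL, WNT10A, WNT5B, FZD7, SLIT2 and EPHA1 ended at up to 0.283 without resting replicate 1, 0.2 without resting replicate 2, 0.0532 without LPS replicate 1, 0.0622 without LPS replicate 2 and 0.0901 without either LC53 plus LPS array, and that of HEY1 with an offset of 50 (0.114) and that of LFNG with the mean over all its probes (0.114).

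Genes of the cytoskeleton and of vesicle traffic were called in both directions. In the actin cytoskeleton list 5 were raised and 5 lowered of 72 (6.9% each, against 4.46% and 3.1% of all genes). MARCKS, a membrane protein that binds actin, read 10508 and 13664 in LPS cells, against 988 and 922 in resting cells, a difference of 3.65 ± 0.23, and its other probe differed by 3.91. PLEK, pleckstrin, read 18042 and 19242 in LPS cells, against 5146 and 5339 in resting cells, whereas TPM1, tropomyosin 1, was lowered at 1891 and 2017 in LPS cells, against 6322 and 6344 in resting cells. Of 70 RAB GTPases 5 were raised and 5 lowered (7.1% each). RAB27B, of exosome and granule release, read 457 and 574 in LPS cells, against 53.5 and 57.5 in resting cells, and RAB33A was lowered at 64.6 and 109.6 in LPS cells, against 578 and 613 in resting cells. Calls of MARCKS, RAB27B and RAB33A held without each array. Those of PLEK and TPM1 ended, at up to 0.0777 without resting replicate 1 and 0.0759 without resting replicate 2.

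Of 25 dual specificity phosphatases 6 were raised (24%) and 3 lowered (12%). DUSP2, a nuclear phosphatase of ERK and p38, read 1555 and 1759.6 in LPS cells, against 332 and 342 in resting cells, and DUSP4, of ERK and JNK, 1357 and 1483 in LPS cells, against 303 and 285 in resting cells. DUSP7, a cytosolic phosphatase of ERK, was lowered at 246 and 287 in LPS cells, against 828 and 921 in resting cells. DUSP27, a catalytically inactive member known from muscle, was lowered at 56.2 and 74 in LPS cells, against 465 and 487 in resting cells (difference -2.88 ± 0.21). Among 36 protein tyrosine phosphatases 4 were raised and 4 lowered (11.1% each). PTPRE, a receptor-type member, read 3058 and 3542 in LPS cells, against 785 and 728 in resting cells, and PTPN22, which restrains antigen receptor signalling and is tied to autoimmunity, was lowered at 202 and 226 in LPS cells, against 782 and 841 in resting cells. Of these calls DUSP7 and PTPN22 ended when 1 array was left out, at up to 0.0777 without resting replicate 1 and 0.0958 without resting replicate 2.

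The 388 solute carriers were called about as often as all genes, 17 raised (4.4%) and 19 lowered (4.9%). SLC2A6, a lysosomal sugar transporter, read 6188 and 7724 in LPS cells, against 1011 and 1009 in resting cells, a difference of 2.78 ± 0.21, and SLC43A2, a transporter of large neutral amino acids, 3680.2 and 4165 in LPS cells, against 644 and 592 in resting cells. SLC40A1, the iron exporter ferroportin, was lowered at 66.7 and 103 in LPS cells, against 381 and 311 in resting cells, a call that ended at 0.129 without resting replicate 1 and 0.0864 without resting replicate 2. Of 44 ABC transporters 2 were raised (4.5%) and 1 lowered (2.3%), near the 4.46% and 3.1% of all genes. ABCA6 read 694 and 656 in LPS cells, against 91.2 and 102 in resting cells (difference 2.81 ± 0.18), and ABCC6 was lowered at 493 and 526 in LPS cells, against 1657 and 1509.8 in resting cells. Of 49 CYP (cytochrome P) genes 3 were raised and 3 lowered (6.1% each, against 4.46% and 3.1% of all genes). The raised CYP27A1, which makes 27-hydroxycholesterol, read 1895 and 1826 in LPS cells, against 435 and 482 in resting cells. The lowered CYP46A1, a cholesterol 24-hydroxylase, read 108 and 133 in LPS cells, against 298 and 349 in resting cells. The calls of ABCC6, CYP27A1 and CYP46A1 ended at up to 0.125 without resting replicate 1 and 0.174 without resting replicate 2. Of 84 glycosyl transferases 6 were raised (7.1%) and 7 lowered (8.3%). CHST2, a sulfotransferase of selectin ligands, read 199 and 327 in LPS cells, against 17.8 and 16.1 in resting cells, whereas ST3GAL3, a sialyltransferase, was lowered at 1416 and 1402 in LPS cells, against 4262 and 5357 in resting cells and FUT7, the fucosyltransferase of selectin ligands, at 908 and 1048 in LPS cells, against 1984 and 2084 in resting cells. FUT7 was named after its values were seen. The ST3GAL3 and FUT7 calls ended at up to 0.252 without resting replicate 1, 0.27 without resting replicate 2, 0.0536 without LPS replicate 1 and 0.0862 without either LC53 plus LPS array.

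Of 53 histone genes and of 61 ribosome biogenesis genes 0 passed the limma test in either direction, although with an offset of 50 there was 1 lowered histone gene, and 2 raised and 3 lowered ribosome biogenesis genes. H3C12, a histone H3 gene named after its values were seen, read 2237 and 3514 in LPS cells, against 554 and 362 in resting cells, with an adjusted p of 0.0956 over all 6 arrays and 0.0251 with the LPS and resting arrays alone. At an unadjusted p under 0.05, 2 histone genes were higher and 1 lower, and 2 ribosome biogenesis genes were higher and 4 lower. Of 94 mitochondrial ribosomal and import genes 1 was lowered (1.06%), of 79 DNA repair genes 1 was raised and 2 were lowered, and of 70 cilium and centrosome genes 1 was raised. Among 63 cell cycle and replication genes 2 were raised, CDKN1A and CCND1. With an offset of 50 more of these genes were called, 8 raised and 0 lowered for the cell cycle, 6 raised and 3 lowered for the cilium, 4 raised and 6 lowered for DNA repair and 0 raised and 6 lowered for the mitochondrial list, against 1183 raised and 1292 lowered of all genes. CDKN1A, the kinase inhibitor p21, read 2215 and 2413 in LPS cells, against 634 and 672 in resting cells, and CCND1, cyclin D1, 179 and 208 in LPS cells, against 61.5 and 69.6 in resting cells. Both calls ended without a resting array (up to 0.122 without resting replicate 1 and 0.0877 without resting replicate 2). Of 482 ZNF genes 6 were raised and 4 lowered (1.24% and 0.83%), of 287 olfactory receptors 1 and 1 (0.348% each), and of 117 keratins and keratin-associated proteins 1 and 1. Of 20 bitter taste receptors 0 passed the limma test, and 0 had an unadjusted p under 0.05. Olfactory and bitter taste receptors were dim, with median intensities of 25.5 and 23.1, and at that level a small change could not be seen. Among the ZNF genes ZNF697 stood out with 2475 and 2965 in LPS cells, against 333 and 321 in resting cells, a difference of 3.05 ± 0.19 that held without each array.

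Of 80 chromatin and DNA methylation enzymes 2 were raised (2.5%) and 5 lowered (6.25%), with a median of -0.16. HDAC4, a class II deacetylase, was lowered at 399 and 495 in LPS cells, against 1099 and 1197 in resting cells, and KDM3A, a histone demethylase, at 1685 and 1651 in LPS cells, against 3577 and 3501 in resting cells. EED, a subunit of the Polycomb complex PRC2, was raised at 6341 and 6986 in LPS cells, against 2869 and 3357 in resting cells. None of the 3 calls held without each array in turn (adjusted p up to 0.307 without resting replicate 1, 0.224 without resting replicate 2, 0.0527 without LPS replicate 1, 0.0562 without LPS replicate 2 and 0.0827 without either LC53 plus LPS array), and that of EED with the mean over all its probes (0.06) ended too. Among 21 circadian clock genes 2 were raised (9.5%) and 1 lowered (4.8%), against 4.46% and 3.1% of all genes. The repressor BHLHE40 read 749 and 954 in LPS cells, against 148 and 143 in resting cells (difference 2.54 ± 0.22), and PER3 dropped to near 0, with 2.08 and 1.92 in LPS cells, against 158 and 147 in resting cells (offset difference -1.96).

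Of 36 symbols in a list of noncoding RNAs and host genes 12 had a probe, of which 2 were raised, MIR155HG and PTGS2, a coding gene that the list also held, and 1 lowered, the dim LINC00273. MIR155HG, the host transcript of miR-155, read 206 and 215 in LPS cells, against 39.7 and 43.4 in resting cells, a difference of 2.35 ± 0.21 (adjusted p = 0.00353) that held without each array in turn. The probe measures the host transcript, and the mature miRNA was not measured. The mature miR-155-5p is printed because its precursor is cut from this transcript, with the seed (bases 2 to 8) in capitals, from RefSeq at chr21:25573983-25574006 on the plus strand (GRCh38.p14).
hsa-miR-155-5p: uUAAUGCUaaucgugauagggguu

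The 4 classic-list genes that went against their lists were the cytokine genes IL18, TNFSF11 and TNFSF14 and the DNA-sensing adaptor STING1, named after their values were seen. STING1 read 1806 and 1801 in LPS cells, against 5729 and 6396 in resting cells, a difference of -1.75 ± 0.18 (adjusted p = 0.00513). IL18, which is stored as a precursor and matured by caspase-1, read 312 and 364 in LPS cells, against 654 and 653 in resting cells. TNFSF14, the ligand LIGHT, read 217 and 213 in LPS cells, against 570.2 and 584 in resting cells, and TNFSF11, the osteoclast factor RANKL, 66.7 and 82.7 in LPS cells, against 169 and 174 in resting cells. All 4 calls ended when 1 array was left out, at up to 0.338 without resting replicate 1, 0.316 without resting replicate 2, 0.0706 without LPS replicate 1 and 0.109 without either LC53 plus LPS array, with the LPS arrays lower in each.

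Saturation limited a few values. CA2, carbonic anhydrase 2 and chosen after its values were seen, was saturated on both resting arrays, so its fall was at least 1.11 on the log2 scale, from the probe at 31682 and 29134 with LPS and 64964 and 66073 at rest, and its second probe differed by -2.16. SOD2, the mitochondrial superoxide dismutase and likewise chosen, was saturated on both LPS arrays, and its second probe differed by 4.20.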

How the data were processed

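Total RNA of THP-1 cells was amplified, labelled with Cy5 and hybridised to 6 single-colour arrays, per the labels' protocols. The deposited values are probe intensities on a linear scale. On each array they are whole numbers times 1 factor, within a tolerance of 0.02, so the authors applied a linear scaling. The scanner, background correction and the basis of that scaling are not given in the sources used here. Intensity near the scanner's limit was treated as saturated, on 96 probes on at least 1 array and 33 on all 6.

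A floor of 1 was applied, and values were put on a log2 scale with no further scaling. Means of the 3 groups were fitted with limma 3.58.1 (lmFit, eBayes) in R 4.3.3 over all 31741 probes and 6 arrays, and LPS minus resting was adjusted by Benjamini-Hochberg, with a threshold of 0.05. Of the probes 24658 carried 1 gene symbol, 1002 several and 6081 none, per the platform annotation, and symbols were updated to RefSeq. The brightest probe by mean across the arrays stood for each of 18255 genes, 5450 of which had several probes. The fit was tested on simulated data. Arrays give no counts, so their number limits the precision.

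Named genes were the 15 largest rises outside the 3 classic lists and the 15 largest falls, ranked with an offset of 50 among called genes without overlap, then up to 3 called genes a direction in each of 26 role lists (1 of them not reported here), up to 2 in each of 20 symbol families, and the cell type markers. The comparison, members and lists were chosen with earlier results of these data known, and the lists of progenitor genes and of amino acid, sugar and NAD enzymes were written after values were seen. Alternatives were quantile normalization, median centring, the offset of 50, leaving out dim or saturated probes, the 4 LPS and resting arrays alone, the replicate number as a block, an intensity trend, the mean over a gene's probes, and leaving out each array. Promoters and the miRNA came from RefSeq GRCh38.p14 tables.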

Additional observations from a re-analysis of the deposited data

How the results depend on the processing

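The number of calls moved with the processing. The 15 largest rises outside the classic lists and the 15 largest falls stayed called under each alternative. Those genes were chosen on these same arrays as called, without overlap and largest, so their stability is no independent check. The 2069 called probes became 5157 after quantile normalization, 3802 after median centring, 3494 with an offset of 50, 3210 without the dimmer probes, 3998 with an intensity trend and robust shrinkage and 1200 with the LPS and resting arrays alone, and between 479 and 2579 without 1 array. The 814 raised genes became 1547, 1379 and 1413 after quantile normalization, median centring and the intensity trend, and between 271 and 880 without 1 array. The 566 lowered genes became 1798 after quantile normalization, 1016 after median centring, 1292 with the offset, 1176 without dim probes, 1353 with the trend and 242 with the 4 arrays alone, and between 50 and 1010 without 1 array. The 695 raised genes outside the classic lists became 1411, 1245, 1058, 1281 and 450 under quantile normalization, median centring, the offset, the trend and the 4 arrays alone, and between 198 and 761 without 1 array. Some settings also had fewer arrays or probes, and the causes were not tested. Of the 814 raised and 566 lowered genes, 813 and 549 were called in the same direction after quantile normalization. The median log2 difference of all probes was -0.05 as deposited and -0.07 and -0.01 under the 2 scalings. Same-numbered arrays correlated at 0.06, 0.20 and -0.08 across probes in their deviations from the group means. Such a correlation cannot see a shift shared by all probes. Replicate 1 had a lower median intensity than replicate 2 at rest (99.2 and 110.9), with LPS (84.4 and 124.0) and with LC53 plus LPS (110.5 and 112.7). Whether the replicate numbers pair the arrays was therefore not settled. With the replicate number as a block 1492 probes and 351 lowered genes were called. Of 525 called genes that were named or belonged to a list, 159 kept their call without each array in turn. The call ended for 353 without resting replicate 1, 343 without resting replicate 2, 95 without LPS replicate 1, 70 without LPS replicate 2 and 183 without either LC53 plus LPS array. SERPINA1 was raised by 1.14 on the log2 scale but differed by -0.48 with the mean over all its probes, and the cause was not tested. Of 1740 counts of list members over settings 1050 lay within 1.5 times the reported count. Dim and saturated probes limit what can be seen.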

Other observations

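Outside the called genes, 7 had a log2 difference past 2 with the offset of 50, of which 5 were higher and 2 lower with LPS. AIFM3, a mitochondrial flavoprotein of the AIF family, had the widest gap. It read 2.08 and 2.88 in LPS cells, against 537 and 666 in resting cells, while the 2 arrays of cells given LC53 and then LPS read 376 and 5.58. Its limma adjusted p was 0.0652 over all 6 arrays and 0.00106 with the LPS and resting arrays alone. CXCL6, a chemokine of epithelial and stromal cells, read 192 and 284 in LPS cells, against 5.95 and 10.1 in resting cells, with adjusted p of 0.308 and 0.00545 in the same 2 fits. GLUL, glutamine synthetase, read 489.6 and 4623 in LPS cells, against 24.8 and 579 in resting cells, so its arrays differed widely within each group. Of the 7 genes 4 were called with the 4 arrays alone.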
